A study of Mus musculus with 5 samples.

Results

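The genes described here are 10 that encode proteins of the secondary (specific) and tertiary (gelatinase) granules of neutrophils or are switched on with them: Ltf, Lcn2, Camp, Ngp, Cd177, Mmp8, Mmp9, Lyz2, Olfm4 and Padi4. They were taken by symbol from the 52550 genes of a table of 3′ RNA-sequencing (Quant-seq) counts, all 10 were found, and 9 had enough counts to be tested. The cells were Lin-cKit+Sca1- (KL) myeloid progenitors sorted from the bone marrow of male mice 20 weeks after tamoxifen, in 3 BcorΔE9-10 libraries (genotype scl-Cre-ERT +; Bcorfl/y) and 2 BcorWT libraries (scl-Cre-ERT +; Bcorwt/y). Both groups carried the Cre transgene, which is driven by a stem cell enhancer of Scl (Tal1) and switched on by tamoxifen, and both received tamoxifen at 1 mg a day for 5 days at 3 to 6 months of age. Cre removes exons 9 and 10 of Bcor, which leaves a truncated protein without the part that joins a Polycomb complex. Nothing in the labels says that each library came from 1 mouse, so p-values measure the spread between these libraries.

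A developing neutrophil fills its granules in turn. Promyelocytes make the primary (azurophil) granules with Mpo and the serine proteases, myelocytes and metamyelocytes make the secondary granules with lactoferrin and the cathelicidins, and band cells make the tertiary granules with gelatinase. Transcripts of secondary granule proteins therefore mark cells past the promyelocyte, and Cebpe is the factor best known for switching them on. The comparison asked whether these late transcripts differed between BcorΔE9-10 and BcorWT progenitors, a question the study put for myeloid development as a whole.

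The libraries held between 5998924 and 8303999 counts. For Bcor, the targeted gene, 196, 168 and 185 counts were found in BcorΔE9-10 and 83 and 109 in BcorWT, but 3′ counts lie outside the removed exons and check nothing. The KL label was set against marker genes. Kit, the receptor used for sorting, was detected in every library at 49.4 to 53.4 CPM in BcorΔE9-10 and at 18.2 and 19.6 CPM in BcorWT, a log2 fold change of 1.43 (SE 0.173, limma BH-adjusted p = 9.82e-05). Here CPM are counts per 1e+06 counts of a library after TMM scaling, and BH stands for the Benjamini-Hochberg adjustment over all genes tested. Ly6a, which encodes Sca1, had 3 to 8 counts in a library. The lineage antibodies against Gr-1 and CD11b should remove late neutrophils. Of their transcripts, S100a8 was high, at 68130 to 80559 CPM in BcorΔE9-10 and at 117214 and 109907 CPM in BcorWT. Cxcr2 was low, at 2.25, 2.94 and 2.80 CPM in BcorΔE9-10 and at 4.83 and 2.22 CPM in BcorWT. Il1b and Clec4d were low as well, at no more than 3.27 and 10.8 CPM in a library.

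Of the 9 granule genes tested, 6 were lower in BcorΔE9-10 at a limma BH-adjusted p-value under 0.05 (Ltf, Ngp, Lcn2, Cd177, Lyz2 and Mmp9), none was higher, and Mmp8, Padi4 and Camp did not pass. Over all 11766 genes tested, 10.1% passed in either direction, 4.09% as lower and 6.02% as higher. None of the 9 had passed the filter through 1 group alone, since all had at least 177 counts in every library. The median log2 fold change of the 9 was -0.64, beside 0.00 over all genes tested, and the values ran from -0.81 for Ltf to 0.25 for Camp. The CPM of the BcorΔE9-10 libraries lay wholly below those of BcorWT for the 6 called genes, as they did for 20.3% of all genes tested, and wholly above them for none of the 9, against 22.6% of all genes. Scaling by total counts alone put the median of all genes at 0.15 and moved the split of calls from 708 higher and 481 lower to 1210 and 197. The granule gene median was then -0.49, with 5 of the genes called lower and Camp called higher. With bulk libraries, fewer cells past the promyelocyte and less of these transcripts per cell cannot be told apart.

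**Figure D1:**
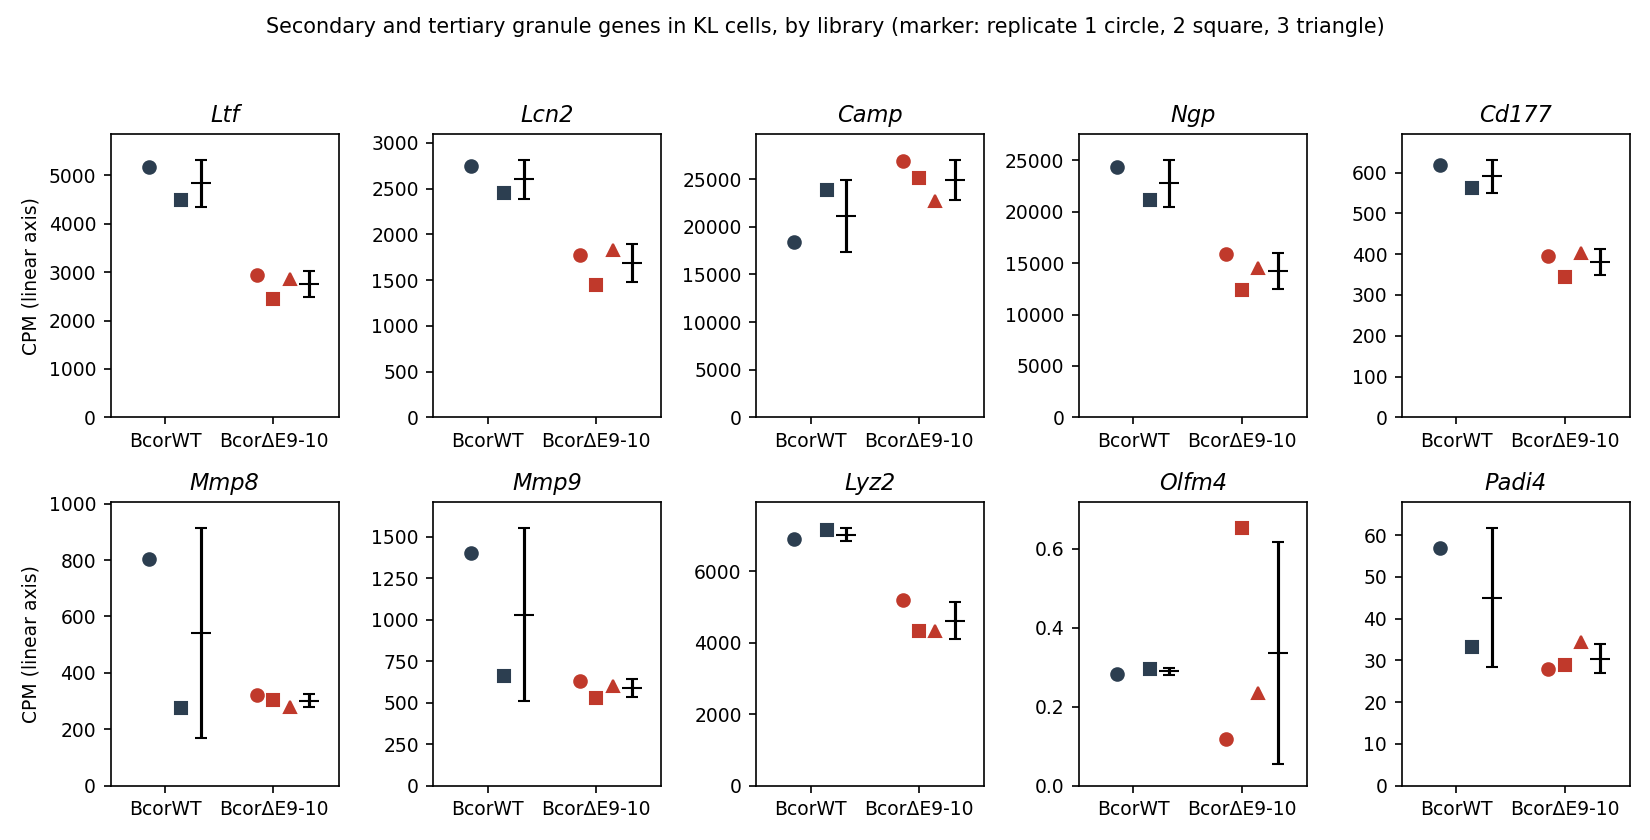
CPM of each of the 10 granule genes (vertical axes linear from 0) in the 2 BcorWT libraries (dark) and the 3 BcorΔE9-10 libraries (red), 1 point per library, with mean and SD beside each group. For Ltf, Lcn2, Ngp, Cd177, Mmp9 and Lyz2 every red point lies below both dark points, whereas Camp, Mmp8 and Padi4 overlap and Olfm4 rests on 1 to 4 counts.

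Ltf (ENSMUSG00000032496) encodes lactoferrin, the iron-binding protein that defines the secondary granule. Its level was 2945, 2441 and 2849 CPM in the BcorΔE9-10 libraries and 5177 and 4491 CPM in the BcorWT libraries. The groups were far apart, and each was narrow. The means were 2745 ± 268 CPM (SD, n = 3) and 4834 ± 485 CPM (SD, n = 2). On the log2 scale BcorΔE9-10 over BcorWT was -0.81 (SE 0.0932, limma BH-adjusted p = 7.34e-05), so that BcorΔE9-10 cells held 56.9% of the BcorWT level.

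Ngp, neutrophilic granule protein, is a secondary granule protein related to the cathelicidins. It was measured at 15858, 12405 and 14496 CPM in BcorΔE9-10 and at 24382 and 21158 CPM in BcorWT. As for Ltf, library 2 was the lowest of the BcorΔE9-10 libraries and library 1 the higher of the BcorWT libraries. Its log2 fold change was -0.68 (SE 0.0915, limma BH-adjusted p = 0.000242), or 62.6% of the BcorWT level. Lcn2, lipocalin 2, binds bacterial siderophores and so withholds iron. It stood at 1774, 1449 and 1829 CPM against 2751 and 2447 CPM, with no overlap, and its log2 fold change was -0.63 (SE 0.101, limma BH-adjusted p = 0.00109).

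Camp encodes the cathelicidin antimicrobial peptide precursor, which is stored in the same granule. Unlike the others it had 26916, 25126 and 22737 CPM in BcorΔE9-10 and 18448 and 23816 CPM in BcorWT. BcorWT library 2 lay within the range of the BcorΔE9-10 libraries and library 1 lay below it. The log2 fold change was 0.25 (SE 0.0951, 95% interval 0.046 to 0.45, limma BH-adjusted p = 0.114). This value rested on BcorWT library 1. Without it the log2 fold change was 0.06 (limma BH-adjusted p = 0.821), and without BcorWT library 2 it was 0.44 (limma BH-adjusted p = 0.00768), fits in which the lone control is assumed to vary like the BcorΔE9-10 libraries. Camp also passed as higher with total counts alone (0.39, limma BH-adjusted p = 0.00444), without the filter on low counts (0.25, limma BH-adjusted p = 0.00373) and after GC correction (0.33, limma BH-adjusted p = 0.0419).

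Ratios of counts within a library do not depend on scaling. Ngp over Ltf was 5.38, 5.08 and 5.09 in BcorΔE9-10 and 4.71 in both BcorWT libraries, and Lcn2 over Ltf was 0.602, 0.594 and 0.642 against 0.531 and 0.545. Both ratios were somewhat higher in every BcorΔE9-10 library, by at most 1.19 times the BcorWT mean. Camp over Ltf was 9.14, 10.3 and 7.98 against 3.56 and 5.30, and Camp over Ngp was 1.697, 2.03 and 1.57 against 0.757 and 1.13. Camp over Ltf was thus 1.80 to 2.32 times its BcorWT mean in BcorΔE9-10, a wider departure than for Ngp or Lcn2. The ratios were chosen after the values were seen and were not tested.

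**Figure D2:**
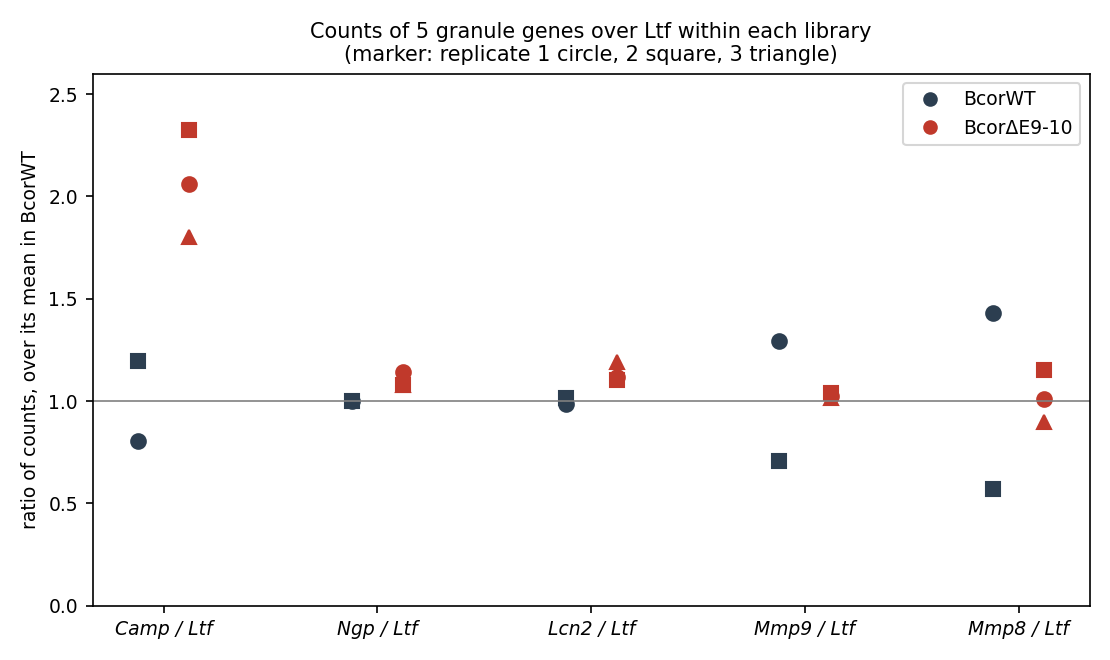
Counts of Camp, Ngp, Lcn2, Mmp9 and Mmp8 divided by the counts of Ltf in the same library, each scaled to its mean over the 2 BcorWT libraries (vertical axis, linear from 0), in BcorWT (dark) and BcorΔE9-10 (red). The Camp ratio lies between 1.80 and 2.32 in BcorΔE9-10, the Ngp and Lcn2 ratios stay between 0.988 and 1.19 in all libraries, and for Mmp9 and Mmp8 the 2 BcorWT libraries lie on either side of the BcorΔE9-10 libraries.

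Camp, Ngp and Ltf are neighbours at a distance on chromosome 9. Per the coordinates of the count table (mm10), Camp lies at 109847379 to 109849617 on the minus strand, Ngp at 110419747 to 110423012 on the plus strand and Ltf at 111019271 to 111042767 on the plus strand. Between Camp and Ngp lie 570.1 kb, and between Ngp and Ltf 596.3 kb. Their upstream sequences are shown because these genes lie near each other and Camp had another pattern than Ngp and Ltf, and that of Lcn2 because it moved with Ltf and Ngp from chromosome 2. Each is the 250 bases before the RefSeq transcript start (GRCm38.p6), printed 5′ to 3′ on the strand of the gene, with matches to TTGCNNAA, a core of the site that C/EBP factors bind, in capitals on either strand.
Ltf, chr9:111019042-111019291, plus strand: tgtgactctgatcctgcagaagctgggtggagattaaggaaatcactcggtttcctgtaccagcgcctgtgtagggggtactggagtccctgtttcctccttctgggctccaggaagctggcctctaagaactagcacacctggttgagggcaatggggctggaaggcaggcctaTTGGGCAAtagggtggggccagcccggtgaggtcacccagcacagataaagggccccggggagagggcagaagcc
Ngp, chr9:110419558-110419807, plus strand: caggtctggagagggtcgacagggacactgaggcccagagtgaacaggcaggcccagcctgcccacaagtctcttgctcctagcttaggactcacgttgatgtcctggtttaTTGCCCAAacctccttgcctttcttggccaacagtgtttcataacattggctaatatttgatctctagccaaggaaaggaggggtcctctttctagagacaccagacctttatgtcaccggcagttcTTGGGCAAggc
Lcn2, chr2:32387740-32387989, minus strand: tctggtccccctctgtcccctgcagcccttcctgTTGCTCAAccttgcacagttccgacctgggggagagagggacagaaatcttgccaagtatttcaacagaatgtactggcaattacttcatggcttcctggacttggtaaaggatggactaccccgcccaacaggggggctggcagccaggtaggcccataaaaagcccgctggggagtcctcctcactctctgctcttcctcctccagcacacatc
Camp, chr9:109849457-109849706, minus strand: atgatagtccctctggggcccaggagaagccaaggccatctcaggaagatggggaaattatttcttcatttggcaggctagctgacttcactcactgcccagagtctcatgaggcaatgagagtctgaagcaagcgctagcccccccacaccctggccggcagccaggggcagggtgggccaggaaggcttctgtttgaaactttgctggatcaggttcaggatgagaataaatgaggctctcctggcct

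RefSeq promoters were matched for 9 of the 10 genes, with Mmp9 named only. The letters TTGCNNAA, searched on both strands, were in the 250 bases of Ltf (1 match), Ngp (2 matches), Lcn2 (1 match) and Mmp8 (1 match), and in 9.56% of the 32851 promoters in the table. In Ltf the match began 75 bases and in Lcn2 216 bases before the start, and in Ngp the 2 matches began 138 and 11 bases before it. No match lay in these windows of Camp, Cd177, Lyz2, Olfm4 and Padi4, which says only that these letters are not there. Cd177 and Lyz2 were called lower without a match, and Mmp8, which had a match, was not called. The motif was chosen after the values were seen. The TATA box letters TATAAA, also searched on both strands, were present in Cd177 and Padi4 and in 12.4% of all promoters.

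Cd177 (chromosome 7, 24743983 to 24760311, minus strand) encodes a glycoprotein of the secondary granule membrane that is also displayed on the neutrophil surface. It had 395, 343 and 402 CPM in BcorΔE9-10 and 620 and 562 CPM in BcorWT, with no overlap. The log2 fold change was -0.64 (SE 0.104, limma BH-adjusted p = 0.00117), or 64.4% of the BcorWT level. Of the 30-base words in the last 300 bases of its transcript, 71.2% occur in BC049730 or Gm4763, so reads could be shared with these copies. BC049730 itself was lower with a log2 fold change of -0.77 (limma BH-adjusted p = 0.00103), and with the counts of all 3 genes summed the value was -0.68 (limma BH-adjusted p = 0.000615).

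Mmp8 (chromosome 9, 7558456 to 7568485, plus strand), neutrophil collagenase, is stored in secondary granules. Its level was 322, 305 and 277 CPM in BcorΔE9-10 and 804 and 277 CPM in BcorWT. One BcorWT library stood far above the rest and the other was level with the lowest BcorΔE9-10 library. The log2 fold change was -0.65 (SE 0.270, 95% interval -1.22 to -0.081, limma BH-adjusted p = 0.140), and without BcorWT library 1 it was 0.12 (limma BH-adjusted p = 0.701), the opposite direction. Without BcorWT library 2 it was -1.41 (limma BH-adjusted p = 1.11e-07), and Mmp8 also passed as lower without the filter on low counts (-0.65, limma BH-adjusted p = 0.0314).

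Mmp9 (chromosome 2, 164940780 to 164955850, plus strand), gelatinase B, is the defining enzyme of the tertiary granule. It was at 631, 528 and 602 CPM in BcorΔE9-10 and at 1400 and 661 CPM in BcorWT. BcorWT library 2 lay only just above the highest BcorΔE9-10 library. Its log2 fold change was -0.71 (SE 0.201, limma BH-adjusted p = 0.0329). The call was lost without BcorWT library 1 (-0.18, limma BH-adjusted p = 0.495), and also without BcorΔE9-10 library 2 (limma BH-adjusted p = 0.107) or 3 (0.0809) and under DESeq2 (-0.83, adjusted p = 0.189).

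Lyz2 (chromosome 10, 117277331 to 117282321, minus strand), the myeloid lysozyme that digests bacterial cell walls, is found in all granule classes and in monocytes and macrophages. It was at 5205, 4321 and 4313 CPM in BcorΔE9-10 and at 6891 and 7151 CPM in BcorWT, well apart. For Lyz2 the log2 fold change was -0.61 (SE 0.0874, limma BH-adjusted p = 0.000389). Its neighbour Lyz1 shares 34.7% of the 30-base words at the end of the Lyz2 transcript and was lower too, with a log2 fold change of -0.49 (limma BH-adjusted p = 0.0109, and 0.0605 without BcorWT library 2), and the counts of both summed gave -0.59 (limma BH-adjusted p = 0.000548). Of the 11 monocyte and macrophage markers tested, 0 were called by limma (2 had an unadjusted p-value under 0.05, as had 25.3% of all genes tested). All 11 had a log2 fold change below 0, with a median of -0.29 (-0.16 without BcorWT library 1, -0.15 with total counts alone and -0.44 after GC correction), and their summed level was 241 to 317 CPM in BcorΔE9-10 and 306 to 335 CPM in BcorWT. Their part in the Lyz2 result was not tested.

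Padi4 (chromosome 4, 140745865 to 140774236, minus strand) encodes the enzyme that converts arginine to citrulline in histones when neutrophils release their chromatin, and is not itself a granule protein. It had 28.0, 28.9 and 34.4 CPM in BcorΔE9-10 and 56.8 and 33.2 CPM in BcorWT, so the groups overlapped. The log2 fold change was -0.52 (SE 0.202, 95% interval -0.95 to -0.091, limma BH-adjusted p = 0.118) and was -0.13 without BcorWT library 1 (limma BH-adjusted p = 0.791) and -0.90 without BcorWT library 2 (limma BH-adjusted p = 0.00216). Olfm4 (chromosome 14, 80000302 to 80021930, plus strand), olfactomedin 4, marks a subset of neutrophils by its secondary granules. It had 1, 4 and 2 counts in BcorΔE9-10 and 2 and 2 in BcorWT. The filter on low counts removed it, so it was not tested. All but 1 of the libraries held no more than the 3 counts that a count of 0 allows, and a difference was not detectable at this depth.

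**Figure D3:**
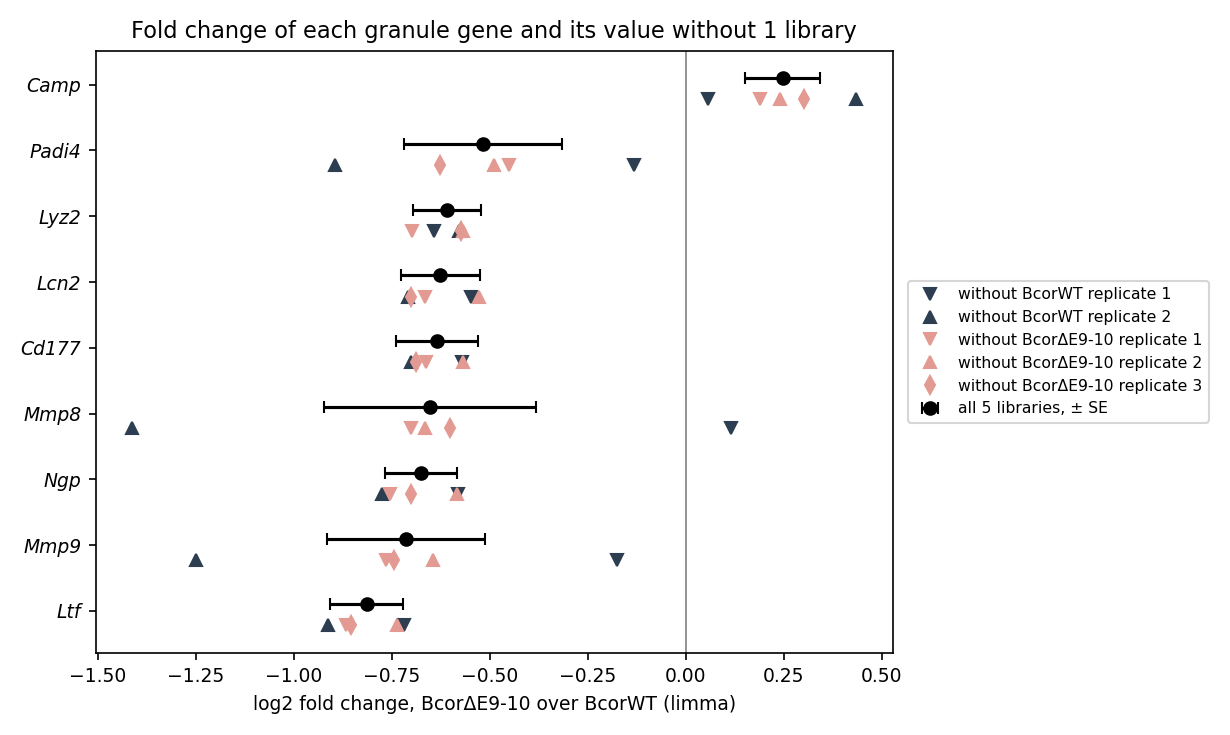
Log2 fold change of BcorΔE9-10 over BcorWT (horizontal axis) for the 9 tested granule genes, with all 5 libraries (black, bars are ± SE) and without each library in turn (triangles and diamonds). Ltf, Ngp, Lcn2, Cd177 and Lyz2 stay between -0.91 and -0.53, whereas without BcorWT replicate 1 Mmp9 is at -0.18, Padi4 at -0.13, Camp at 0.06 and Mmp8 at 0.12.

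The 2 BcorWT libraries were then compared for these genes. Library 1 stood above library 2 by 1.54 for Mmp8, 1.08 for Mmp9 and 0.77 for Padi4 on the log2 scale, larger than the difference between the groups for each of them. A difference of over 0.5 between these libraries in either direction was seen for 28.5% of all genes tested. For Ltf, Ngp, Lcn2 and Cd177 library 1 was above by 0.14 to 0.21, for Lyz2 it was below by 0.05, and for Camp it was below by 0.37. Of the 12 late neutrophil markers 11 were higher in library 1 than in library 2, with Retnlg at 830 and 260 CPM, and of the 11 primary granule genes tested 1 was. Over all 11766 genes tested, 5606 were higher in library 1. The part of this difference between controls in the results for Mmp8, Mmp9, Padi4 and Camp was not tested.

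**Figure D4:**
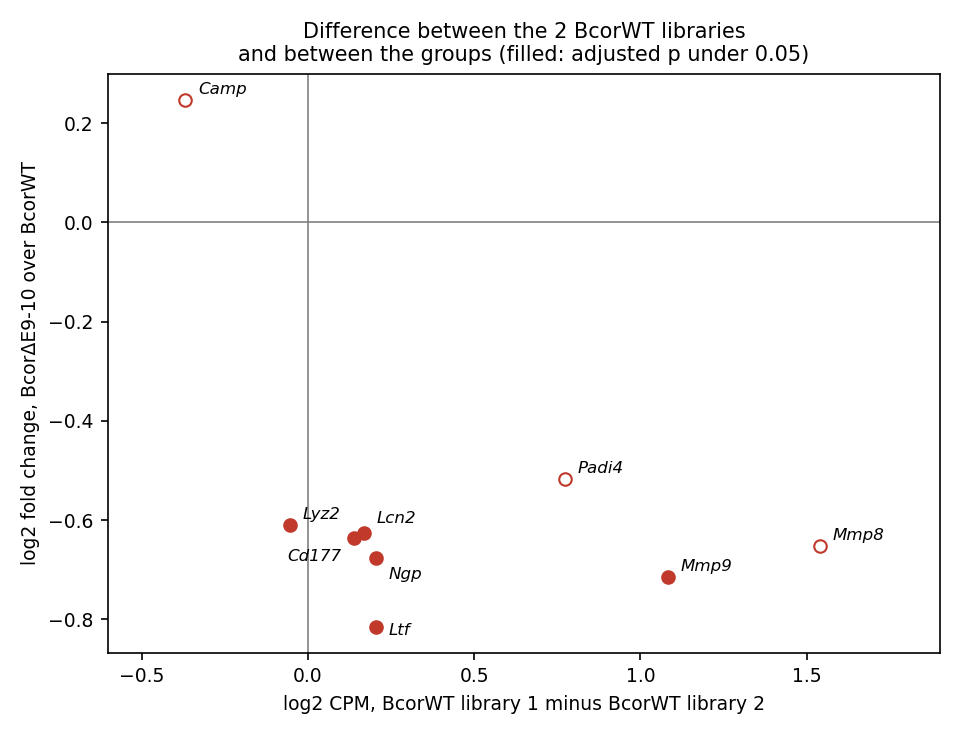
For each of the 9 tested granule genes, the log2 CPM of BcorWT library 1 minus that of library 2 (horizontal axis) and the log2 fold change of BcorΔE9-10 over BcorWT (vertical axis), filled where the adjusted p-value was under 0.05. Mmp8, Mmp9 and Padi4 lie at 1.54, 1.08 and 0.77 on the horizontal axis, while Ltf, Ngp, Lcn2, Cd177 and Lyz2 lie between -0.05 and 0.21.

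As a share of each library, the 10 genes took 5.51% (95% Wilson interval 5.49 to 5.52), 4.80% (4.78 to 4.81) and 5.12% (5.10 to 5.13) of the counts in BcorΔE9-10 and 5.62% (5.61 to 5.64) and 5.77% (5.75 to 5.78) in BcorWT. These intervals cover counting error only. Camp alone took 2.74%, 2.57% and 2.45% against 1.71% and 2.27%. Without Camp the shares were 2.77%, 2.23% and 2.67% against 3.91% and 3.50%, with a wider gap between the groups than for all 10.

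The other genes of these granules were examined as a list of 20, of which 19 were tested. Of these, 6 were lower (4.09% of all genes tested), 1 was higher (6.02% of all genes tested) and 12 did not pass, and the median log2 fold change was -0.29. Hp, haptoglobin, which binds free haemoglobin, was lower in BcorΔE9-10 (438 ± 34.7 CPM, SD, n = 3) than in BcorWT (794 ± 75.1 CPM, SD, n = 2), with a value of -0.85 on the log2 scale (limma BH-adjusted p = 9.78e-05). Cybb, the catalytic subunit of the phagocyte NADPH oxidase, which sits in the secondary granule membrane, fell by 0.55 on the log2 scale (limma BH-adjusted p = 0.00366). Lrg1, Cfp, Cyba and Chit1 fell as well, by 1.02, 0.91, 0.37 and 0.96 on the log2 scale. The call for Cyba was lost in 7 of 18 alternatives. They were total counts alone (-0.23, limma BH-adjusted p = 0.153), GC correction (-0.22, limma BH-adjusted p = 0.178), GC correction with the replicate block (-0.22, limma BH-adjusted p = 0.2804), and leaving out either BcorWT library or BcorΔE9-10 library 1 or 3 (limma BH-adjusted p = 0.0519 to 0.1002). That for Chit1 was lost in 9 of 18, with adjusted p from 0.0519 (DESeq2) to 0.122 (without BcorWT library 1), the others being sample quality weights, total counts alone, GC correction with and without the block, and leaving out BcorWT library 2 or BcorΔE9-10 library 2 or 3. That for Cfp was lost without BcorWT library 1 (-0.55, limma BH-adjusted p = 0.215) or BcorΔE9-10 library 1 (limma BH-adjusted p = 0.0616). Anxa1, an annexin that gelatinase granules carry, was higher in BcorΔE9-10 (755 ± 85.2 CPM, SD, n = 3) than in BcorWT (230 ± 51.9 CPM, SD, n = 2), by 1.73 on the log2 scale (limma BH-adjusted p = 2.89e-06). Fcnb, ficolin B, was at 472 and 460 CPM and did not pass (0.04, limma BH-adjusted p = 0.872). Without BcorWT library 1 the list had 3 lower and 1 higher, with a median of -0.13, while over all genes 277 were lower and 281 higher.

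Primary granule genes are switched on at the stage before. Of 12 genes 11 were tested and 0 were called by limma (4 had an unadjusted p-value under 0.05, beside 25.3% of all genes tested). Their median log2 fold change was -0.09. The edgeR quasi-likelihood test and DESeq2 each called 1 as lower, beside 489 and 528 genes called lower over all genes. Without BcorWT library 1 the median of the primary granule genes was -0.11. Mpo, myeloperoxidase, was at 4937 ± 622 CPM (SD, n = 3) in BcorΔE9-10 and 5238 ± 78.2 CPM (SD, n = 2) in BcorWT (log2 fold change -0.09, SE 0.0935, limma BH-adjusted p = 0.593). The log2 fold changes of Cd63, Prtn3 and Ctsg were -0.20, -0.17 and 0.33 (limma BH-adjusted p = 0.163, 0.362 and 0.0895). Without BcorWT library 1 Prtn3 passed as lower (-0.42, limma BH-adjusted p = 0.0302), and without BcorWT library 2 Ctsg passed as higher (0.53, limma BH-adjusted p = 0.0107). Whether the primary and the later granule genes differed from one another in their response was not tested.

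Late neutrophil markers include genes that peak after the granules are filled. All 12 were tested, 6 were lower and none was higher, beside 4.09% and 6.02% of all genes tested, and the median was -0.54. S100a8 and S100a9, the calcium-binding pair that fills the neutrophil cytosol, fell by 0.61 and 0.41 on the log2 scale (limma BH-adjusted p = 7.95e-05 and 0.00208). Ly6g, part of the Gr-1 antigen of the sort, fell by 0.97 (limma BH-adjusted p = 0.00204), while Itgam, which encodes the CD11b antigen of the sort, was at 119.6, 121.6 and 132.3 CPM in BcorΔE9-10 and at 96.4 and 96.5 CPM in BcorWT (log2 fold change 0.37, limma BH-adjusted p = 0.0618). The BcorΔE9-10 libraries thus lay above both BcorWT libraries for Itgam and below both for Ly6g. Itgam passed with total counts alone (0.51, limma BH-adjusted p = 0.0157) and with counts drawn down (0.40, limma BH-adjusted p = 0.0482) and was at -0.0017 after GC correction with the replicate block. Retnlg was at -0.46 (limma BH-adjusted p = 0.335). Its value was 0.37 without BcorWT library 1 and -1.29 without BcorWT library 2. Retnlg passed as lower with the replicate block (-0.60, limma BH-adjusted p = 4.28e-05) and with GC correction added to the block (-0.52, limma BH-adjusted p = 0.000636). The summed level of the list was 107473 to 125738 CPM in BcorΔE9-10 and 164227 and 176839 CPM in BcorWT. Nearly all of it was S100a8 and S100a9, at 80559 and 44214 CPM in BcorΔE9-10 library 1 and 117214 and 57644 CPM in BcorWT library 1. No marker was at 0 in all libraries, but Cxcr2, Il1b and Clec4d were at no more than 10.8 CPM in any library. The part of carried-over late neutrophils in the granule gene results was not tested.

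**Figure D5:**
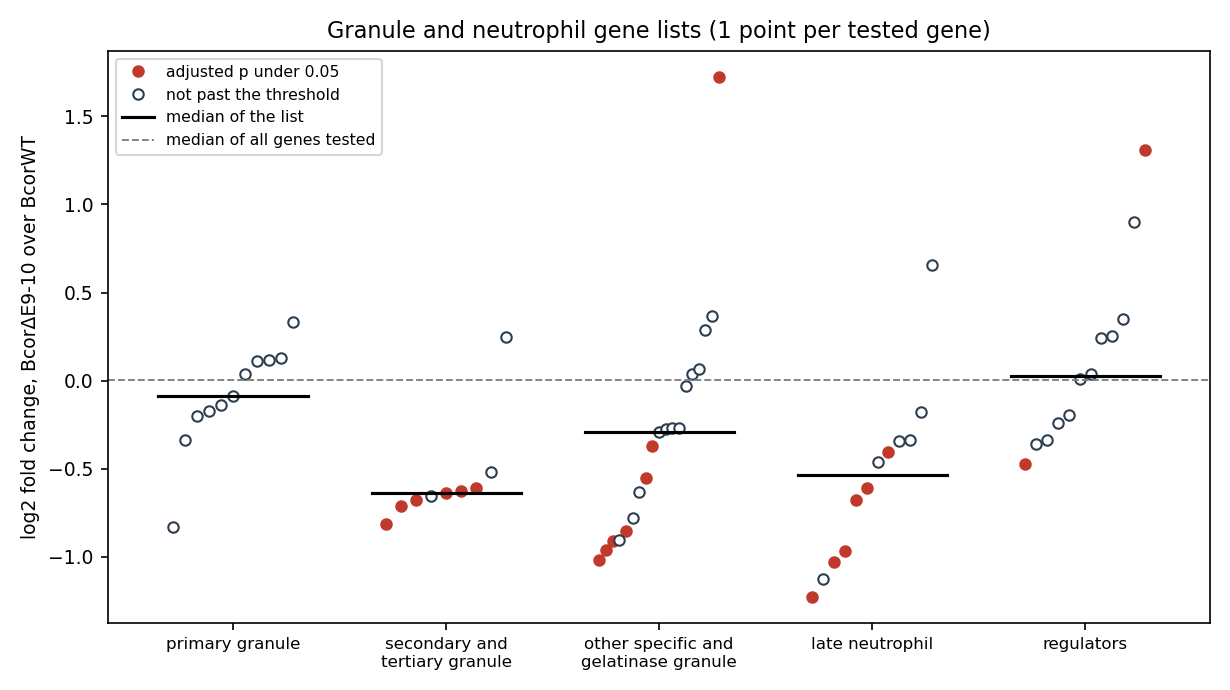
Log2 fold change of BcorΔE9-10 over BcorWT (vertical axis) for the tested genes of 5 lists, 1 point per gene, filled where the limma BH-adjusted p-value was under 0.05, with the median of each list as a bar. The bars lie at -0.09 for primary granule genes, -0.64 for the 9 secondary and tertiary granule genes, -0.29 for other specific and gelatinase granule genes, -0.54 for late neutrophil markers and 0.02 for regulators, beside 0.00 for all genes tested (dashed).

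Of 12 regulators of granule genes, all tested, 1 was higher and 1 lower, with a median of 0.02. This is near the 6.02% and 4.09% of all genes tested that were called. Cebpe, the factor of the secondary granule stage, was at 129.9, 115.5 and 137.2 CPM in BcorΔE9-10 and at 137.2 and 156.3 CPM in BcorWT and did not pass (log2 fold change -0.20, SE 0.122, limma BH-adjusted p = 0.331). Cebpb, which takes over in emergency granulopoiesis, rose from 20.6 and 24.0 CPM to 43.3, 71.8 and 56.0 CPM (log2 fold change 1.31, SE 0.217, limma BH-adjusted p = 0.00128). Spi1, which encodes PU.1, was lower by limma (log2 fold change -0.47, SE 0.114, limma BH-adjusted p = 0.0154), a call that was lost with total counts alone, after GC correction and without BcorWT library 1 (-0.40, limma BH-adjusted p = 0.109) or BcorΔE9-10 library 1 (limma BH-adjusted p = 0.0524). Cebpa, needed earlier in the lineage, was at -0.34 (limma BH-adjusted p = 0.166), and Gfi1, a repressor that granulocytes need to mature, at 0.35 (limma BH-adjusted p = 0.0971). The others did not pass, with -0.36 for Klf5, -0.24 for Stat3, 0.0085 for Csf3r, 0.04 for Cux1, 0.24 for Cebpd, 0.25 for Runx1 and 0.90 for Rara (limma BH-adjusted p = 0.190 to 0.987), and the sign of Csf3r and Cux1 turned under some settings. Without BcorWT library 1 Cebpa passed as lower (limma BH-adjusted p = 0.0452), and without BcorWT library 2 Gfi1 passed as higher (limma BH-adjusted p = 0.0122).

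Markers of other cells that the sort could hold were summed in the same way. Of the 10 basophil, mast cell and eosinophil markers tested, 8 were lower (4.09% of all genes tested), with a median log2 fold change of -1.25 and a summed level of 597 to 861 CPM in BcorΔE9-10 and 1387 and 1707 CPM in BcorWT. Of the erythroid markers 1 of 7 (Car1, named after its value was seen) was higher by limma, beside 6.02% of all genes tested. The edgeR quasi-likelihood test called 5 of the markers, and 830 genes as higher over all genes. The summed level of the erythroid markers was 66.1 to 261 CPM in BcorΔE9-10 and 26.6 and 70.5 CPM in BcorWT. Their median log2 fold change was 1.69, 6 of the 7 were above 0, and 6 had an unadjusted p-value under 0.05, beside 25.3% of all genes tested. The median was 0.92 without BcorWT library 1 and 1.013 without BcorΔE9-10 library 3. Without BcorΔE9-10 library 1 limma called 6 of the erythroid markers as higher, and 636 genes as higher over all genes. Without BcorΔE9-10 library 2 or 3 it called 0 of the markers. Of the 6 lymphoid markers tested 0 were called by limma (2 had an unadjusted p-value under 0.05). Their median log2 fold change was 1.32, 5 of the 6 were above 0, and the sums were 18.3 to 32.0 CPM in BcorΔE9-10 and 19.7 and 9.04 CPM in BcorWT. Without BcorWT library 2 the median was 0.72. Of the 6 megakaryocyte markers tested 0 were called by limma (1 had an unadjusted p-value under 0.05). Their median was 0.58 (0.19 without BcorWT library 2), 4 of the 6 were above 0, and the sums were 45.7 to 72.0 CPM against 46.7 and 28.0 CPM. Their part in the granule gene results was not tested.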

How the data were processed

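Quant-seq 3′ RNA sequencing was performed on 3 BcorΔE9-10 and 2 BcorWT KL libraries. The authors trimmed reads with cutadapt (version 1.7 in the submitters' processing notes), mapped them with HISAT2 on mm10 and ran featureCounts of Subread 1.5.0-p3. What they deposited are whole-number counts of each gene, not normalised. The strand and multi-mapping options are not given in the sources used here, so copies and overlapping genes may share reads (Olfm4 overlaps Gm6999).

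Symbols were assigned to 52403 of 52550 genes through GENCODE M21. Counts were filtered with filterByExpr of edgeR 4.0.16 (minimum count 10, minimum total 15), scaled by TMM and tested with limma 3.58.1 (voom, two-sided) in R 4.3.3, with Benjamini-Hochberg adjustment over 11766 genes and a threshold of 0.05. The scripts were tested on simulated data. Alternatives included edgeR's quasi-likelihood test, DESeq2 1.42.0, other scalings and filters, a GC correction, a replicate block, and each library left out in turn. Controls left out in turn and summed copies were added after seeing the data. Between replicates, chi-square per gene was 5.69 to 10.8, where 1 is sampling noise.

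The 10 genes, the 10 other lists and the motifs were chosen with earlier results of these data known. The genes named by rule were these 10, Bcor, Lyz1, every tested regulator, at most 4 of the most abundant genes of each other list, and markers a statement needs. BC049730, Gm4763, Lrg1, Cfp, Cyba, Chit1 and Car1 were named after their values were seen.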

Additional observations from a re-analysis of the deposited data

How the results depend on the processing

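Ltf, Ngp, Lcn2, Cd177 and Lyz2 were called lower in all 18 alternatives. The number of the 9 granule genes called ran from 5 to 9, and without 1 library their median ran from -0.78 to -0.55. Over the 9 genes, 143 alternative values kept direction and call, 12 gained a call, 6 (all for Mmp9) lost it, and Mmp8 turned to 0.12 without BcorWT library 1. Mmp9 lost its call with DESeq2 (adjusted p = 0.189), total counts alone (0.0591), GC correction (0.0563) and without BcorΔE9-10 library 2 (0.107) or 3 (0.0809) or BcorWT library 1 (0.495). Causes of these changes were not tested.

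Replicate numbers were shared by 2 pairs, whose deviations correlated at 0.0573 and 0.0667, too weak to call them paired. A fit with the replicate block called 1454 genes against 1189, of which 1087 were shared in the same direction. All 9 granule genes were then called, Camp as higher (0.31, limma adjusted p = 0.000832), and with GC correction and the block 8 were. Replicate 3 was in BcorΔE9-10 only, so its library adds nothing to the genotype contrast in these fits. That contrast rests on the 2 pairs, with few degrees of freedom left to measure the spread. The block also gave 2 primary granule, 6 erythroid and 1 megakaryocyte calls and put Fcnb at -0.011 and Cux1 at -0.0034.

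Leaving out 1 library gave 558 (BcorWT library 1) to 1200 (BcorWT library 2) calls over all genes, with 774 without BcorΔE9-10 library 2 and 723 without library 3. It gave 4 to 10 calls and medians from -0.62 to -0.13 for the other specific and gelatinase granule genes, 0 to 3 calls and -0.124 to 0.069 for primary granule genes, 1 to 3 calls and -0.059 to 0.040 for regulators, medians of -0.81 to -0.45 for late neutrophil and 0.19 to 0.65 for megakaryocyte markers, 0 to 1 calls and -0.44 to -0.16 for monocyte markers, 0 to 6 calls and 0.92 to 2.51 for erythroid markers, and medians of 0.72 to 1.65 for lymphoid markers. Fcnb ran from -0.023 (BcorΔE9-10 library 3 left out; -0.0076 for library 1) to 0.13, Mpo from -0.17 to 0.0033 (BcorΔE9-10 library 2), Prtn3 from -0.42 to 0.069 (BcorWT library 2), Cux1 from -0.11 (BcorWT library 2; -0.0073 for BcorΔE9-10 library 3) to 0.19, Csf3r from -0.37 (BcorWT library 1; -0.070 and -0.0051 for BcorΔE9-10 libraries 1 and 2) to 0.37, and Retnlg from -1.29 to 0.37 and Mmp8 from -1.41 to 0.12 (both BcorWT library 1).

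The median of the other specific and gelatinase granule genes was -0.37 with edgeR, -0.39 with DESeq2 and -0.15 with total counts alone. Primary granule calls were 1 with edgeR, DESeq2, quality weights, RLE size factors, total counts alone, at least 10 counts in every library and counts drawn down, and 2 with no filter, GC correction, and GC correction with the block. Their median and Mpo were 0.058 with total counts alone and 0.048 with GC correction, and with the block added to GC correction Mpo was 0.039, Prtn3 0.0032 and Itgam -0.0017. Csf3r was -0.033 with edgeR, -0.050 with DESeq2, -0.0080 with RLE size factors and -0.019 with counts drawn down. Regulator calls were 1 with GC correction and 4 with the block added, at medians of 0.10 and 0.12, and 0.17 with total counts alone. The late neutrophil median was -0.66 with DESeq2 and -0.39 with total counts alone. The regulator median was -0.00038 with edgeR, -0.017 with DESeq2 and 0.0073 with RLE size factors, and the erythroid median 1.013 with the block and 1.08 with GC correction added. Erythroid calls were 5 with edgeR, 2 with DESeq2, 0 with quality weights, 3 with total counts alone, 8 with no filter, 0 with GC correction and 5 with the block added. GC correction with the block called 1 monocyte and 2 megakaryocyte markers (median 0.79), total counts alone 1 megakaryocyte marker, and counts drawn down 1 lymphoid marker, whose median was 0.23 with at least 10 counts in every library. Without Lyz2 the shares of counts were 4.98%, 4.35% and 4.65% in BcorΔE9-10 and 4.98% and 5.09% in BcorWT. Depth limits Olfm4 alone among the 10 genes.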
